A study of Mus musculus with 4 samples.

Results

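Proteasome genes were examined in E18.5 mouse lung, from late gestation shortly before birth. The members were all genes whose symbols start with Psma, Psmb, Psmc, Psmd or Psme and that have a probe set paired with no other gene, apart from 1 beta-type gene that is not analysed here. There were 43 such genes among 18193 genes with a probe set of their own. They were read by 76 probe sets on the Affymetrix array design MOE430A and by 17 on its companion MOE430B, and 3 of these probe sets are carried by both designs. The study asked what skeletal muscle contributes to lung development. It compared lungs of embryos labelled Myf5-/-:MyoD-/- (BALB/c, null for both of these myogenic factors, which skeletal muscle needs to develop) with lungs of wild type BALB/c embryos of the same age. Total RNA was labelled with biotin as cRNA, from 6 µg per sample. Each genotype was hybridised to 1 array of each design, 4 arrays in all, so there was no replicate, no test between genotypes was possible and no p-value is given. The labels do not say how many embryos a sample holds.

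The proteasome is the protease that breaks down proteins tagged with ubiquitin. Its core is a barrel of alpha rings, which gate the entrance, and beta rings, of which the subunits Psmb6, Psmb7 and Psmb5 cut peptide bonds. A regulatory cap of ATPases (Psmc genes) and non-ATPases (most Psmd genes) binds, unfolds and threads the substrate. Lymphoid cells, and other cells exposed to interferon gamma, make the immunoproteasome, in which Psmb9, Psmb10 and Psmb8 take the places of Psmb6, Psmb7 and Psmb5 and improve the supply of peptides for MHC class I. The activator Psme1 with Psme2 is induced by the same cytokine.

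Signals are array intensities in arbitrary units. A probe set counted as measured, or passing, when the higher of its pair of signals was at least the median signal (787.4 for MOE430A, 855.1 for MOE430B), and ratios were taken after signals under the 25th percentile (283.8 and 278.1) had been set to that floor. On MOE430A 57 of the 76 member probe sets passed, and on MOE430B 10 of 17. Of the 43 genes, 41 had a passing probe set. Psma8, a testis form of an alpha subunit, read 160.8 in the array labelled double knockout and 134.0 in the array labelled wild type, both under the floor. Psmd10, an assembly chaperone of the cap, read 753.7 in the array labelled double knockout and 522.3 in the array labelled wild type, under the filter. Psme2 was left out because its probe set is paired with 2 genes.

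Several features of the arrays bear on every direction below. Myf5 was below the floor in both MOE430A arrays, with 8.94 in the array labelled double knockout and 110.5 in the array labelled wild type, and Myod1 went against the labels, at 1081 in the array labelled double knockout and 85.0 in the array labelled wild type. Whether either probe set falls inside deleted sequence is not known here, so the arrays are named by their labels throughout. Xist was lower in the array labelled double knockout (2749 against 7600 in the array labelled wild type), and the labels give no sex. The brightest probe sets of the Y chromosome genes Kdm5d and Uty went the other way, though under the filter. Kdm5d read 737.4 in the array labelled double knockout and 286.5 in the array labelled wild type, and Uty 653.1 and 164.9. A difference in sex between the arrays was not tested. Control probe sets for ribosomal RNA were a median 3.91-fold higher on MOE430A in the array labelled double knockout, while the 3′ to 5′ signal ratio of Gapdh was 0.845 there and 0.788 in the array labelled wild type. The tissue label was borne out by surfactant genes, with Sftpc, surfactant protein C, at 113337 in the array labelled double knockout and 78525 in the array labelled wild type. Cardiac muscle markers were bright as well, with Myl2 at 86011 in the array labelled double knockout and 61909 in the array labelled wild type. As a guide to error in place of replicates, 1 log2 ratio had an SD of 0.24, from the 99 probe sets that passed on MOE430A and on MOE430B, and their ratios averaged 0.22 higher on MOE430A. This SD covers technical error between arrays only and not the variation between embryos. The medians of the constitutive beta subunits and of the non-ATPases are smaller than that offset, and that of the ATPases is about as large. Different probe sets of 1 member gene on MOE430A had a pooled SD of 0.29 (14 genes).

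Psmb8 and Psmb9, inducible catalytic subunits, had the lowest ratios of the 57 passing member probe sets on MOE430A. The sequences just upstream of Psmb8 and Psmb9, and of the constitutive subunits Psmb5 and Psmb6 that they replace, are shown first, because these pairs carry the contrast described below. They are RefSeq sequences of build GRCm38.p6, each written 5′ to 3′ in the direction of the gene and ending at the base before its start. Each has 250 bases apart from that of Psmb9, which has the 225 bases between its start and the start of Tap1, a peptide transporter gene that runs the other way. Capitals mark matches to the motifs named after them.
Psmb8, chr17:34197945-34198194, plus strand: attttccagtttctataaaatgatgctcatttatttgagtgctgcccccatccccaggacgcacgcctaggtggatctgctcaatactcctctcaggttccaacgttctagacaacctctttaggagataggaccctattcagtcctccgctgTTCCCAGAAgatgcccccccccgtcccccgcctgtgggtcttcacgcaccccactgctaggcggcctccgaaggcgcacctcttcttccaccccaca
Psmb9, chr17:34187331-34187555, minus strand: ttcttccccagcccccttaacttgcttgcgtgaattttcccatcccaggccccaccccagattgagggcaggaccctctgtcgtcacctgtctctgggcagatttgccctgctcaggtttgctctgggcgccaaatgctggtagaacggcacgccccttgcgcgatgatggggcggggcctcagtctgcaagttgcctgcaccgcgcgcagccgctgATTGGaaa
Psmb5, chr14:54617996-54618245, minus strand: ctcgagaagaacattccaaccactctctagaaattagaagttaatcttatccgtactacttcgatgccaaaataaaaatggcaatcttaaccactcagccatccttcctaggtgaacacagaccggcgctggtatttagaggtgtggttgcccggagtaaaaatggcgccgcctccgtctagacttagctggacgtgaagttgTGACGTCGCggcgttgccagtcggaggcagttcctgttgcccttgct
Psmb6, chr11:70525107-70525356, plus strand: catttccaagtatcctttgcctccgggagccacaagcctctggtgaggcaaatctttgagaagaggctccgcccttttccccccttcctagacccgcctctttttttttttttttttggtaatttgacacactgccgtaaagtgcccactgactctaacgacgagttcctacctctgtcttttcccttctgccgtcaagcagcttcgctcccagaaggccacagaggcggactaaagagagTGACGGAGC

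Both strands of the 250 bases upstream were searched for 4 motifs, chosen with the ratios known, and 36 of the 43 genes were matched in the promoter table, with 39 starts. In Psmb8 the capitals are a match to the gamma-activated sequence (GAS), TTCNNNGAA. It starts 97 bases before the gene, and 7.02% of all 32851 promoter windows hold a match. In Psmb9 they are the reverse complement of the NF-Y box CCAAT, which 33.8% of all windows hold. In Psmb5 and Psmb6 they are the core of the antioxidant response element, TGACNNNGC, through which the factor Nfe2l1 drives proteasome genes. It was found in 5 of 39 member windows and 10.2% of all windows. The core of the interferon-stimulated response element, GAAA, any 2 bases and GAAA, was in 3 member windows (Psmb3, Psmd4 and Psmd9) and 2.98% of all. Psmb10 had no match to any of the 4 motifs. The matches shown do not overlap one another, and a match is a description of the letters only.

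Psmb8, the inducible subunit at the Psmb5 position, read 650.2 in the array labelled double knockout and 2198 in the array labelled wild type, 3.38-fold lower (log2 ratio -1.76). Psmb9, the inducible subunit at the Psmb6 position, read 368.8 in the array labelled double knockout and 1317 in the array labelled wild type, 3.57-fold lower (-1.84). These ratios were the 74th and 65th lowest of 12203 passing probe sets. Both lay below the central 95% of ratios of passing probe sets of similar, modest brightness, which ran from -1.15 to 1.08. Each of these probe sets reached the filter only through the array labelled wild type, and the lower signal of Psmb9 was not far above the floor. Psmb10, the inducible subunit at the Psmb7 position, read 1091 in the array labelled double knockout and 1677 in the array labelled wild type, a log2 ratio of -0.62 that lies inside that range. A dimmer Psmb8 probe set on MOE430B did not pass the filter, with 158.1 in the array labelled double knockout, under the floor, and 408.3 in the array labelled wild type. Psme1, the alpha subunit of the interferon-induced activator, went the other way, with 10527 in the array labelled double knockout and 8137 in the array labelled wild type (0.37). Of the 4 immunoproteasome genes measured, 3 were thus at least 1.5-fold lower and none higher by that much, where 6.32% of all 7658 passing genes were at least 1.5-fold lower and 6.23% at least 1.5-fold higher. Since Psmb8 and Psmb9 passed only through the array labelled wild type, this count is a description. The median log2 ratio of the 4 was -1.19, and -0.68 with signals floored at the median. Lymphocyte markers also read lower in the array labelled double knockout (6263 in summed signal, against 30238 in the array labelled wild type). Of the 13 genes summed, 11 reached the filter only through the array labelled wild type, and bright probe sets weigh most in a sum. The part of lymphocytes in the ratios of these subunits was not tested. In whole tissue, fewer cells of a type and less RNA per cell cannot be told apart.

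**Figure D1:**
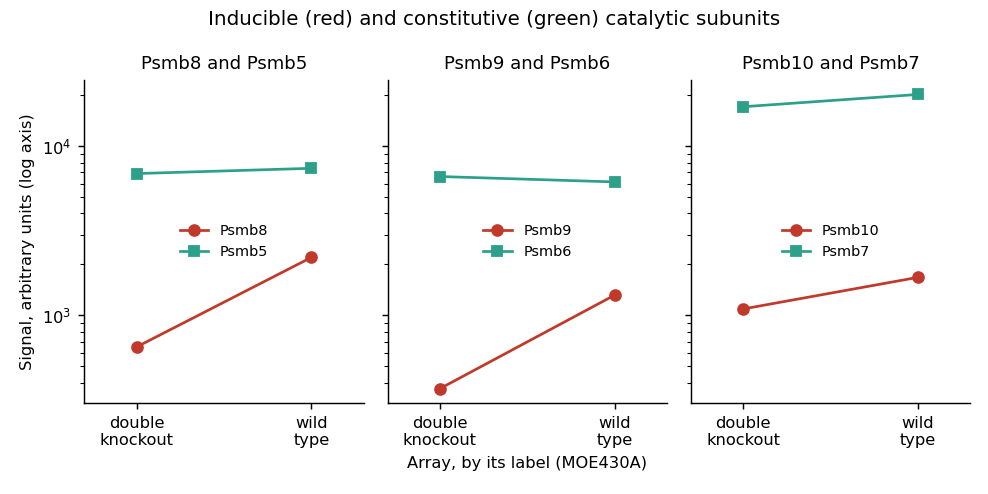
Signal of each inducible catalytic subunit (red) and of the constitutive subunit it replaces (green) on MOE430A, in arbitrary units on a log axis, with the array labelled double knockout on the left and the array labelled wild type on the right of each panel. Only the slopes can be compared, since different probe sets have different sensitivities: Psmb8 and Psmb9 slope steeply (3.38-fold and 3.57-fold lower), while Psmb5 and Psmb6 are nearly flat.

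The constitutive partners differed little. Psmb5, the chymotrypsin-like subunit, read 6882 in the array labelled double knockout and 7394 in the array labelled wild type (log2 ratio -0.10). Psmb6, the caspase-like subunit, read 6611 in the array labelled double knockout and 6142 in the array labelled wild type (0.11). Psmb7, the trypsin-like subunit, read 17095 in the array labelled double knockout and 20205 in the array labelled wild type (-0.24). The change of each inducible subunit relative to its partner does not depend on how the arrays were scaled to each other by a factor. This difference was -1.65 on the log2 scale for Psmb8 over Psmb5, -1.94 for Psmb9 over Psmb6 and -0.38 for Psmb10 over Psmb7. The Psmb8 and Psmb9 differences are several times the technical SD of 0.24 of 1 log2 ratio. A difference of 2 ratios has a larger error than 1 ratio, and dim probe sets vary more. On MOE430A the ratios of passing probe sets of modest brightness had an SD of 0.55, against 0.34 for bright ones. The Psmb10 difference of -0.38 is smaller than that SD of 0.55. How large these differences are beside the variation between embryos is not known. The Psmb9 difference was -0.85 when signals were floored at the median of the design, which lies above the signal of Psmb9 in the array labelled double knockout.

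The remaining beta subunits, which complete the rings, lay on both sides of 0. Psmb1 read 6112 in the array labelled double knockout and 5722 in the array labelled wild type (0.10), although a second probe set read 2324 in the array labelled double knockout and 1368 in the array labelled wild type (0.76), the single member probe set on MOE430A at least 1.5-fold higher. Psmb2 had 0.06 and Psmb3 had 0.41, with 0.04 by its other probe set. Psmb4 was at -0.36 and -0.27 by its probe sets. Over the 7 constitutive beta genes the median log2 ratio was 0.06, with 3 lower and 4 higher, against a median of 0.01 over all passing genes.

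In the alpha ring 6 of 7 genes were lower in the array labelled double knockout, where 48.7% of all passing genes were. The median log2 ratio of the ring was -0.34. Psma1 read 3258 in the array labelled double knockout and 4997 in the array labelled wild type (-0.62). The same probe set on MOE430B read 12328 in the array labelled double knockout and 17312 in the array labelled wild type (-0.49), while a dim second Psma1 probe set there had a log2 ratio of 0.33. Psma7 was lower by both its probe sets, at -0.62 and -0.42, with 4048 in the array labelled double knockout and 6207 in the array labelled wild type by the brighter one. Psma2 had -0.39 and Psma3 -0.34. Psma5 had -0.07 and -0.25 by its probe sets and Psma6 had -0.09 and -0.19, and Psma4, whose tail helps close the gate, was at 0.10. Psma1 and Psma7 were at least 1.5-fold lower, but the central 95% of ratios of bright probe sets ran from -0.65 to 0.65, so that every alpha subunit lay inside it.

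The 6 ATPases of the cap form the ring that unfolds substrates, and all 6 were lower in the array labelled double knockout, none of them by 1.5-fold on its brightest probe set. Their median log2 ratio was -0.24, and single genes lay between -0.54 and -0.13. Psmc1 read 2060 in the array labelled double knockout and 2988 in the array labelled wild type (-0.54). Psmc3 had -0.34, Psmc4 -0.22 and Psmc5 -0.13. The Psmc5 probe set is on both designs and read -0.28 on MOE430B, and the Psmb5 probe set, also on both, read -0.13 there. Psmc2 had -0.25 and -0.57 by its 2 probe sets, and Psmc6 -0.22 and, by a dim probe set, -0.64. Over all passing genes 48.7% were lower by any amount. The ratios of Psmc4 and Psmc5 were no larger than the SD of 0.24, and those of Psmc1 and Psmc3 exceeded it.

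**Figure D2:**
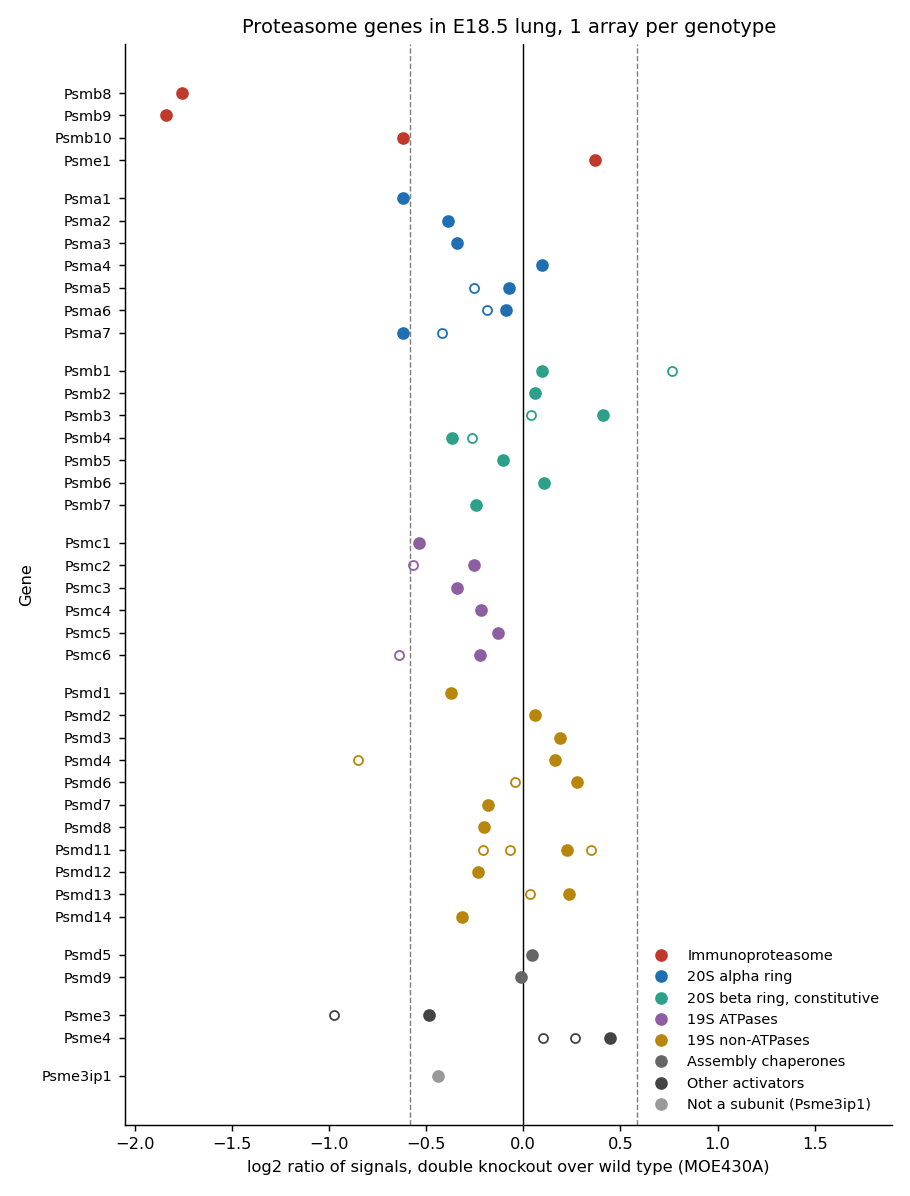
Log2 ratio of signals (x axis, array labelled double knockout over array labelled wild type) for the 40 member genes with a passing probe set on MOE430A, grouped by role. Filled points are the brightest passing probe set of a gene and open points its other passing probe sets, and dashed lines mark 1.5-fold. Psmb8 and Psmb9 stand at -1.76 and -1.84, apart from all other members, and the 6 ATPases all lie left of 0.

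The non-ATPases of the cap were spread on both sides of 0, with 5 of 11 lower and a median of 0.06. That median was -0.18 when a gene was given the median of its probe sets, so the direction depends on the probe sets chosen. Psmd1, a scaffold of the base, read 2899 in the array labelled double knockout and 3752 in the array labelled wild type (-0.37). Psmd2, the other scaffold, read 7090 in the array labelled double knockout and 6796 in the array labelled wild type (0.06). Psmd14, the enzyme that removes ubiquitin chains from the substrate, had -0.31. Psmd4, a receptor for ubiquitin chains, had 0.17 by its brightest probe set and -0.85 by another, which read 1385 in the array labelled double knockout and 2494 in the array labelled wild type. The lid subunits Psmd6 (0.28), Psmd13 (0.24), Psmd11 (0.22) and Psmd3 (0.19) were above 0, and Psmd12 (-0.23), Psmd8 (-0.20) and Psmd7 (-0.18) below it. The 4 passing Psmd11 probe sets on MOE430A ran from -0.21 to 0.35. Among the assembly chaperones with Psmd symbols, Psmd5 had 0.05 and Psmd9 -0.01.

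The other activators differed from each other. Psme3, which forms a cap of its own in the nucleus, read 794.2 in the array labelled double knockout and 1111 in the array labelled wild type (-0.48), with -0.97 by a dimmer probe set that passed only through the array labelled wild type and had -0.15 with signals floored at the median. Psme4, the large single-chain activator PA200, was higher by all 3 probe sets that passed on MOE430A, at 0.45, 0.26 and 0.10, but -0.25 by a probe set on MOE430B. The symbols Psmc3ip and Psme3ip1 belong to no subunit. Psme3ip1, a partner of Psme3, had -0.44, and Psmc3ip, a factor of meiotic recombination, had -0.25 on MOE430B and did not pass on MOE430A.

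Of the 40 member genes with a passing probe set on MOE430A, 26 were lower and 14 higher, where 48.7% of all 7658 passing genes were lower. The median log2 ratio of the 40 was -0.19. At least 1.5-fold lower were 5 (Psmb8, Psmb9, Psmb10, Psma1 and Psma7), where 6.32% of all passing genes were. Over all member probe sets of MOE430A, 37 of 57 passing ones were lower, where 50.1% of all passing probe sets were. At least 1.5-fold lower were 8 of the 57, where 7.31% of all 12203 were, and at least 1.5-fold higher was 1, where 6.38% were. The 8 were those of Psmb8, Psmb9, Psmb10, Psma1 and Psma7 already named and single dimmer probe sets of Psmd4, Psmc6 and Psme3. Those of Psmb8, Psmb9, Psmc6 and Psme3 reached the filter only through the array labelled wild type, and with signals floored at the median the Psmc6 and Psme3 ones were no longer 1.5-fold lower (-0.17 and -0.15). Under a stricter filter, the 75th percentile, 4 of 47 were at least 1.5-fold lower. The share of all probe sets under that filter was not computed, so this count is a description. At least 2-fold lower were 2, those of Psmb8 and Psmb9, where 2.05% of all were. On MOE430B 6 of 10 passing member probe sets were lower, where 50.1% of all were. There 1 of 10 passing member probe sets was at least 1.5-fold lower, where 15.5% of all 12892 were, and 2 were at least 1.5-fold higher, where 18.6% were. Both shares are near the background of that design. The lower one, of Psmd11, read 354.6 in the array labelled double knockout and 1114 in the array labelled wild type (-1.65), unlike the brighter Psmd11 probe sets of MOE430A. The higher ones, of Psmd2 (1.37) and Psmd13 (0.74), were likewise dim and stood apart from brighter probe sets of the same genes. This Psmd11 probe set reached the filter only through the array labelled wild type, and that of Psmd2 only through the array labelled double knockout. The directions of these Psmd11 and Psmd2 ratios were thus set by the filter.

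**Figure D3:**
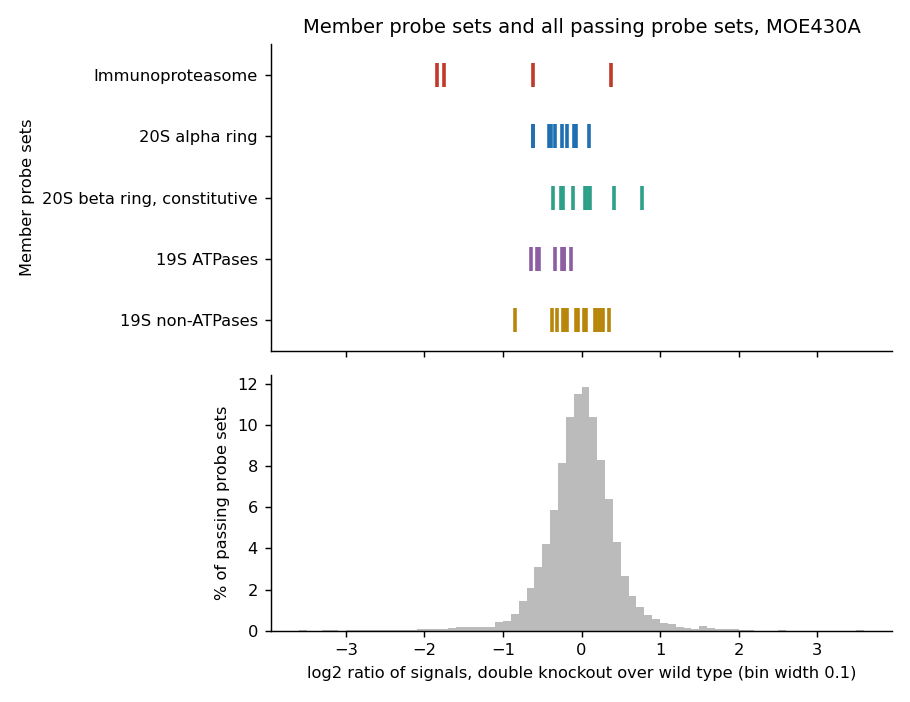
Log2 ratios (array labelled double knockout over array labelled wild type) of member probe sets on MOE430A, 1 tick each, in 5 groups (top), above the distribution of all 12203 passing probe sets in bins of 0.1 (bottom, percent). The ticks of Psmb8 and Psmb9 lie in the left tail of the distribution, where 2.05% of probe sets are at least 2-fold lower. Most ticks of constitutive subunits lie nearer its middle, but single probe sets of Psmd4 (-0.85) and Psmb1 (0.76) lie towards its ends.

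Psmb9, Tap1, Psmb8 and Tap2 follow one another on chromosome 17, inside the MHC, and Tap1 and Tap2 encode the transporter that carries proteasome products into the endoplasmic reticulum. Named for this position after their values were seen, they did not share a ratio with the subunits. Tap1, whose start faces that of Psmb9 across the 225 bases printed above, read 1101 in the array labelled double knockout and 1081 in the array labelled wild type (0.03). Tap2 read 796.1 in the array labelled double knockout and 1447 in the array labelled wild type (-0.86). Each was read by 1 passing probe set. Of 10 measured genes of MHC class I presentation, 7 were lower in the array labelled double knockout, where 48.7% of all passing genes were, and 4 by at least 1.5-fold, where 6.32% were. The median was -0.39. H2-K1 and H2-D1, classical class I heavy chains, both had -0.62, but their probe sets, which can be shared among class I genes, ranged from -0.79 to 0.24 and from -0.87 to 1.71. The light chain B2m, also named after its values were seen, had -0.59. Tapbp, which loads peptides, had -0.03, and Calr, a chaperone of the same complex, 0.02.

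Genes of the interferon response lay on both sides of 0. Of 12 measured, 5 were lower and 7 higher, with a median of 0.05. Irf1, the interferon-induced factor that acts on Psmb9 and Tap1, read 3397 in the array labelled double knockout and 3527 in the array labelled wild type (-0.05). Iigp1 had 0.08, with -0.79 by its other probe set, and Rsad2 -0.72, with 0.24 by its other probe set. At least 1.5-fold lower were 3 of the 12, where 6.32% of all passing genes were. They include Bst2, at least 2.87-fold lower with a signal of 136.6, under the floor, in the array labelled double knockout. Bst2 reached the filter only through the array labelled wild type, so it had to read lower and its part of the count is a description.

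The lymphocyte markers came from a list of 18 genes, most of them of T cells. Of the 18 markers 13 were measured and 11 of these were at least 1.5-fold lower, where 6.32% of all passing genes were. All 11 reached the filter only through the array labelled wild type, so they had to read lower in the other array and the count is a description. The median of the 13, with signals under the floor set to it, was -2.43 on MOE430A, and on MOE430B -1.65 over 2 genes. The summed signal of the 13 was 6263 in the array labelled double knockout and 30238 in the array labelled wild type. Ptprc, the CD45 antigen, read 308.0 in the array labelled double knockout and 2874 in the array labelled wild type. Rag1, the recombinase of lymphocyte precursors, was at least 11.7-fold lower, and Cd3d, Cd3e, Cd3g and Cd247 were also under the floor in the array labelled double knockout. Cd8a had -2.43 on MOE430A, and its 3 passing probe sets on MOE430B ran from -2.70 to -0.30, the brightest having -0.30. The measured genes of B cells were not lower by their brightest probe sets. Ighm was at 0.14, with its 3 passing probe sets from -0.55 to 0.86, and Cd79a at 0.37. Cd79a reached the filter only through the array labelled double knockout, so it had to read higher there. Of the thymic epithelium markers 6 of 8 were measured and 3 were at least 1.5-fold lower, where 6.32% of all passing genes were. Of these 3, Ccl25 and Prss16 reached the filter only through the array labelled wild type, so this count too is a description. Ccl25, a chemokine of thymic epithelium, was at least 8.61-fold lower, although another Ccl25 probe set on MOE430B had 0.57, and Prss16, a thymic protease, was 6.76-fold lower. Foxn1, the master factor of thymic epithelium, was at -0.02, Cldn4 at 0.17 and Krt5 at 0.47. Krt5 reached the filter only through the array labelled double knockout, so its ratio had to be above 0. The list had a median of -0.43. Its summed signal was 12866 in the array labelled double knockout and 25213 in the array labelled wild type, most of it from Ctsl (-0.84), a protease of many tissues. Macrophage and neutrophil markers had a median of -0.16 over 8 genes, 6 of them lower, where 48.7% of all passing genes were. S100a8 was at -0.87, S100a9 at -0.52, Csf1r at 0.07 and Lyz2 at 0.27. Proliferation markers, which lymphocyte precursors share, had a median of -0.83 over 5 genes, and alveolar type II markers 0.49 over 7.

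**Figure D4:**
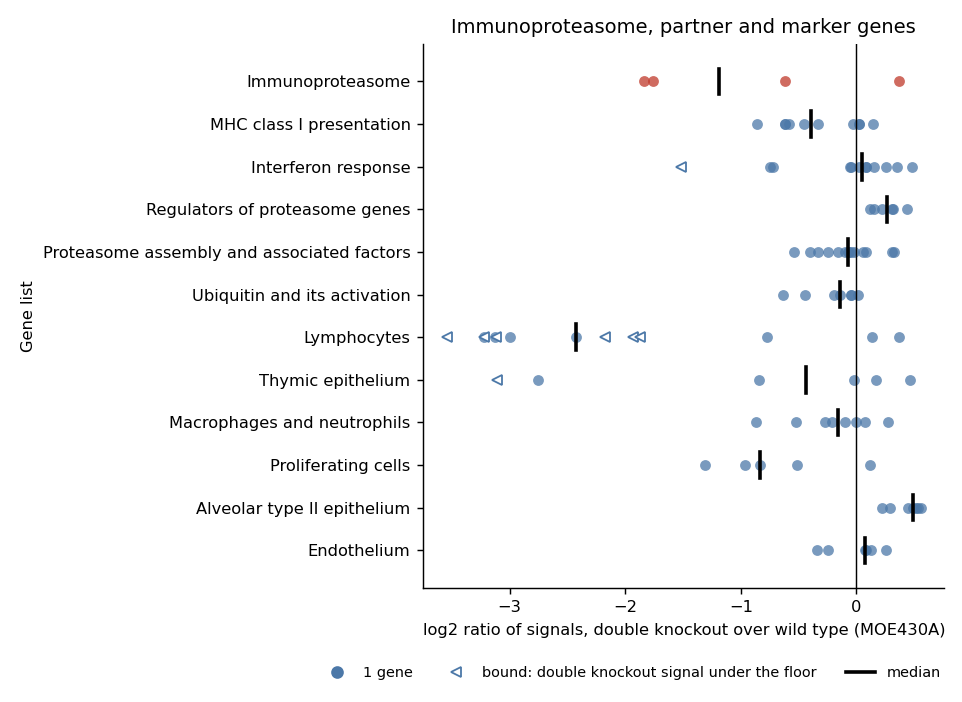
Log2 ratio (x axis, array labelled double knockout over array labelled wild type, MOE430A) of each measured gene in 12 lists, with 1 point per gene and a bar at the median. Open triangles are bounds where the signal of the array labelled double knockout was under the floor. Psmb8 and Psmb9 lie between the MHC class I genes (median -0.39) and the lymphocyte markers (median -2.43), and the regulators of proteasome genes all lie right of 0.

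Regulators of proteasome genes were slightly higher in the array labelled double knockout, 6 of 6 measured, where 3928 of all 7658 passing genes were higher. None was higher by 1.5-fold. Their median of 0.26 is about as large as the 0.22 by which ratios of shared probe sets averaged higher on MOE430A than on MOE430B. Nfe2l1, the factor that restores proteasome genes when the protease is inhibited, read 3245 in the array labelled double knockout and 2609 in the array labelled wild type (0.31). Nfe2l2, its relative of the oxidative stress response, had 0.22, Keap1, which holds Nfe2l2 in check, 0.15, and Ngly1, the glycanase that processes Nfe2l1, 0.12. Of these 4 ratios only that of Nfe2l1 is larger than the SD of 0.24 of 1 log2 ratio. Among 14 assembly and associated factors the median was -0.07, and 10 were lower, where 48.7% of all passing genes were. None of the 14 differed by at least 1.5-fold in either direction. Psmg4, an assembly chaperone of the core, had 0.33 and Usp14, a deubiquitinase of the cap, 0.31, with 0.59 by a probe set on MOE430B. The inhibitor Psmf1 had -0.25, and Akirin2, which brings proteasomes into the nucleus, -0.40. The 7 measured genes of ubiquitin handling had -0.14 as their median, with Vcp, the segregase that extracts ubiquitinated proteins, at -0.05 and its cofactor Nploc4 at -0.64, the single one past 1.5-fold. Rad23b, which ferries ubiquitinated proteins to the proteasome, had -0.20, with 0.30 by its other probe set.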

How the data were processed

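Messenger RNA of fetal lung was measured on 4 Affymetrix arrays, 1 per genotype on each of 2 designs. The authors deposited a linear intensity for each probe set, computed with MAS5 per the submitters' processing notes. The sources used here do not give its version. Such signals are noisy when dim. The designs are not on 1 scale, and ratios were formed within a design only. The 64 control probe sets of a design were dropped. Signals of the array labelled double knockout were scaled so that passing probe sets had a median ratio of 1 (divisor 1.004 on MOE430A and 1.008 on MOE430B), and the filter and floor were then taken from the scaled signals. A gene was represented by its brightest passing probe set on a design. Genes were named through GEO's platform annotation, and all 43 member symbols matched the RefSeq table of GRCm38.p6 by Entrez identifier. The array annotation names no build, so the only coordinates given are those of the RefSeq promoter sequences.

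No test was possible without replicates. Shares of all passing features are given beside most counts for comparison, and they are not a test between genotypes. The members and lists were chosen with earlier results of these data known. All member genes were named. Of other lists at most 4 genes were named by rule, the 2 highest and 2 lowest ratios among those whose signal reached the 75th percentile. The Cd3 genes, Cd247, Cd79a, Foxn1, Krt5, Bst2, B2m, Tap1 and Tap2 were named after their values were seen. Lists of alveolar type I, club, endothelial, skeletal and cardiac muscle markers had medians of 0.05, 0.39, 0.08, -0.90 and 0.18 on MOE430A. The steps were tested on simulated arrays. The work used python 3.11.15, pandas 2.3.3 and statsmodels 0.14.6.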

Additional observations from a re-analysis of the deposited data

How the results depend on the processing

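No paired analysis was possible because each genotype has 1 array per design. The scalings tried were the deposited signals, quantile normalization and a loess correction. The floor was set lower (10th percentile) or higher (median), the filter was dropped or raised to the 75th percentile, a gene was given the median of its probe sets, and probe sets prone to cross-hybridisation were dropped. A value was taken to have moved when it shifted by more than 0.24, the SD of 1 log2 ratio, and a count when it changed by over 1.5 times. No member gene on MOE430A changed sign with the 3 other scalings, and 101 of the 112 recomputed summaries did not move. Some of these could not move, since a change of floor leaves bright signals as they are. The limit of 0.24 is also wide beside small medians. That of the non-ATPases was -0.07 without probe sets that may cross-hybridise, against 0.06 as reported, and counted as not moved. With the floor at the median, the immunoproteasome median was -0.68 (-1.19 as reported), Psmb8 over Psmb5 -1.38 and Psmb9 over Psmb6 -0.85, and no member probe set was at least 1.5-fold lower on MOE430B, since dim signals are then raised to the floor. With the filter at the 75th percentile, Psmb9 and Psmb10 no longer passed and the immunoproteasome median over the other 2 genes was -0.71, the lower count on MOE430A was 4 instead of 8, and the counts on MOE430B were 0 lower and 0 higher instead of 1 and 2. Without a filter 2 were lower on MOE430B. Without probe sets that may cross-hybridise, which drops Psmb8 and Psmb5, the immunoproteasome median was -0.62 over 3 genes, and Psmb8 over Psmb5 had no value. Psmb9 over Psmb6 and Psmb10 over Psmb7 had none with the stricter filter. With the median over probe sets, the median of the non-ATPases was -0.18 instead of 0.06. The medians of the alpha ring (-0.39 to -0.32), the constitutive beta ring (0.05 to 0.08) and the ATPases (-0.38 to -0.22) kept their direction throughout. The number of arrays limits the precision of every value.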

Other observations

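Some member probe sets under the filter differed from brighter probe sets of the same gene. A Psmd9 probe set on MOE430A read 367.3 in the array labelled double knockout and 755.7 in the array labelled wild type, while the brighter Psmd9 probe set read 1711 in the array labelled double knockout and 1727 in the array labelled wild type. A Psma3 probe set on MOE430B read 293.5 in the array labelled double knockout and 698.9 in the array labelled wild type. A Psmc4 probe set on MOE430A read 558.0 in the array labelled double knockout and 783.6 in the array labelled wild type, a log2 ratio of -0.49 beside -0.22 by the brighter one. On MOE430A 19 member probe sets did not pass, 10 of them with both signals under the floor.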
